A study of Homo sapiens with 6 samples.

Results

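The histone-modifying enzyme genes were the 79 of 20033 protein-coding genes on the 24 human chromosomes whose RefSeq symbol begins with KMT, KDM, KAT, HDAC, SIRT, PRMT or SETD followed by a digit, together with EZH1, EZH2, EP300, CREBBP, DOT1L, NSD1, NSD2 and NSD3. They were chosen by name, with no measured value. They comprised 23 lysine methyltransferases, 20 lysine demethylases, 10 lysine acetyltransferases, 11 HDACs, 7 SIRTs and 8 arginine methyltransferases. Open chromatin was read from ATAC-seq, in which a transposase inserts adapters into accessible DNA, and peaks are stretches where insertions pile up. The material was Jurkat, an established human T cell leukaemia line grown in RPMI1640 medium with serum and antibiotics. Nuclei of 50000 cells per library were released with a detergent lysis, and 3 libraries were made under simulated microgravity (SMG) and 3 under normal gravity (NG). For SMG the isolated nuclei, not living cells, turned in a random positioning machine at 30 degrees per second for 30 minutes at 37 degrees C. Transposition also took 30 minutes at 37 degrees C, and the labels do not say whether the rotation and the transposition were the same 30 minutes. All libraries came from this single cell line, and the labels are silent on whether replicates were separate cultures.

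Enzymes of these families write and erase acetyl and methyl groups on histone tails. Acetyltransferases and some methyltransferases place marks found at active promoters, enhancers and transcribed gene bodies, others place repressive marks, and deacetylases and demethylases remove them. In T cells the balance between them is known for setting which lineage genes can be switched on, and several are recurrently mutated in leukaemia. A peak at the end of such a gene shows accessible DNA there and not the expression of the enzyme, and a library without a called peak may still hold signal under the threshold of the authors' peak caller.

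The 6 lists held 42222, 42399 and 39624 peaks in SMG 1 to 3, against 37782, 43713 and 40601 in NG 1 to 3. They give no read counts, so sequencing depth is unknown. NG 1 stood apart with the fewest peaks and the shortest median peak, 424 bp. The T cell label was checked against marker genes: 9 of 9 T cell markers matched in the annotation were open at a gene end throughout, while 0 of 6 B cell markers were open in any library and 1 of 6 myeloid markers was open in all of them. All counts that follow rest on presence or absence of a called peak per library, since peak heights of separately called lists cannot be set against each other.

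At the level of the whole family, the number of open enzyme genes under SMG and NG differed by less than the spread between libraries. A gene counted as open where a peak overlapped a window of 1 kb to each side of either gene end. Of the 79 genes, 66, 65 and 63 were open in SMG 1 to 3, against 61, 66 and 66 in NG 1 to 3. The mean was 64.7 ± 1.53 genes in SMG and 64.3 ± 2.89 genes in NG (SD, n = 3 each), so the groups overlapped and the lowest value was that of NG 1. In percent, 81.9 ± 1.93% of the enzyme genes were open in SMG and 81.4 ± 3.65% in NG, beside 53.6 ± 1.24% of all protein-coding genes in SMG and 53.2 ± 2.27% in NG (SD, n = 3 each). A total of 59 enzyme genes (74.7%) were open in all 6 libraries, 11 (13.9%) in none and 9 (11.4%) in 1 to 5. Over all protein-coding genes the shares were 46.6%, 39.7% and 13.7%. No enzyme gene was open at a gene end in all SMG and no NG libraries, and none in the reverse pattern; over all protein-coding genes each pattern held for 20 genes, 0.0998% in either direction. For the enzyme genes both counts were 0 also when any single library was left out. With 3 libraries against 3 the smallest exact two-sided permutation p for 1 gene is 0.1, so no single gene could pass 0.05.

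**Figure D1:**
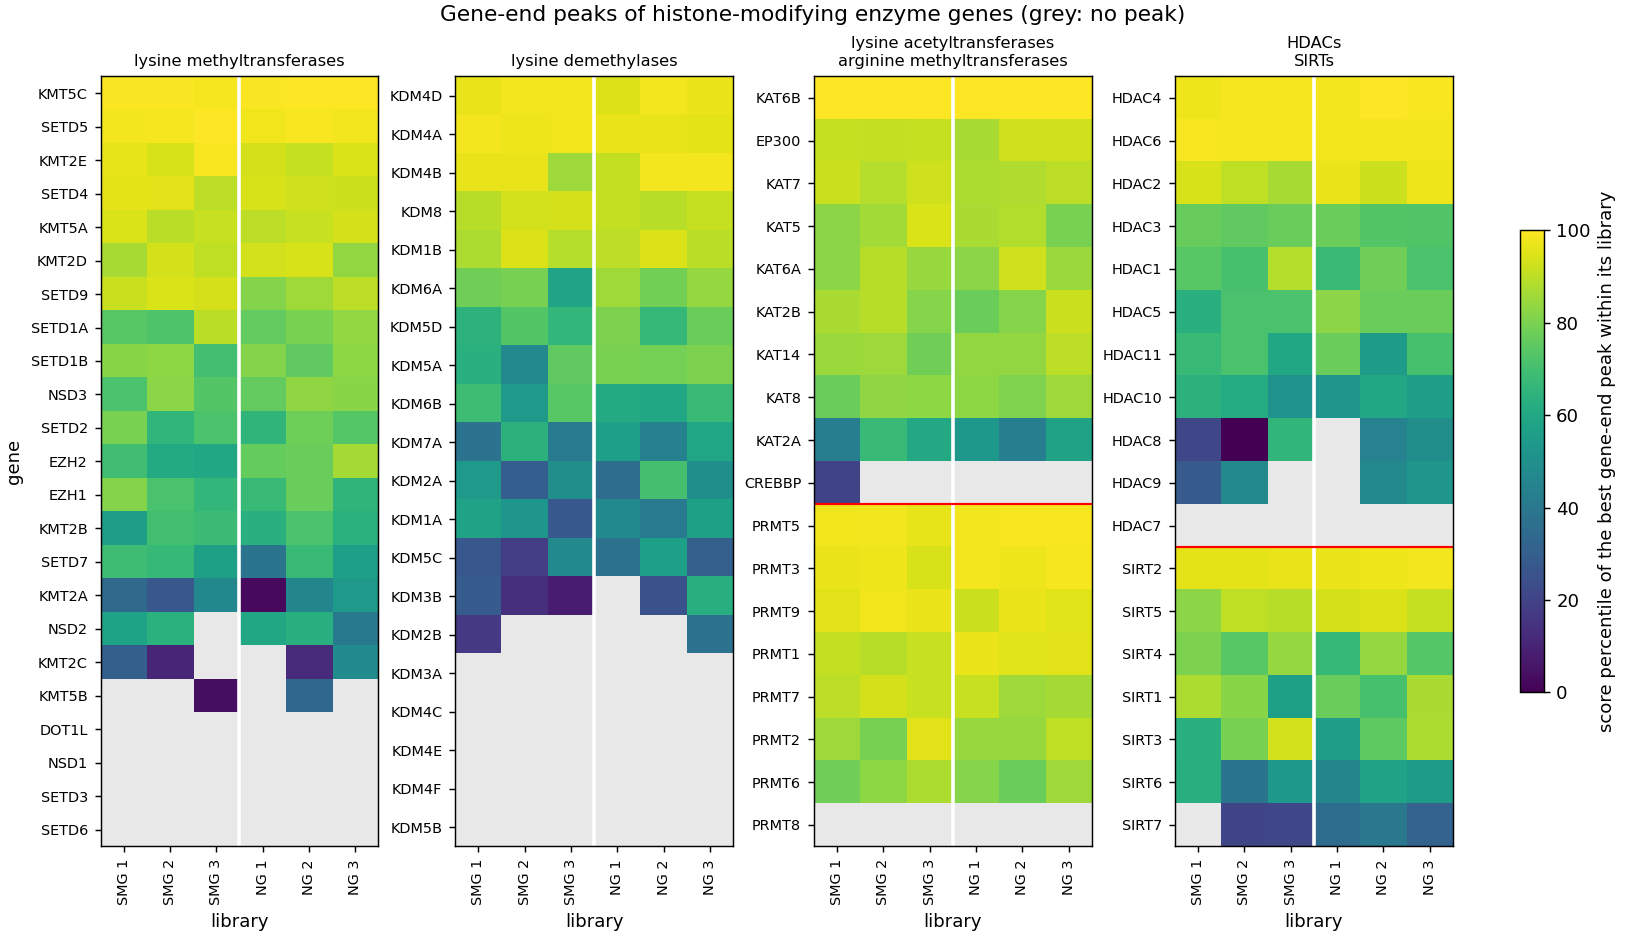
Gene-end peaks of the 79 histone-modifying enzyme genes, by role. Rows are genes, columns the 3 SMG and 3 NG libraries, and colour gives the percentile of the best gene-end peak among all peaks of its own library, with grey for no peak. Within each role, those of the 59 genes open in all 6 libraries fill the upper rows, and those of the 11 open in none the lowest.

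Peak strength was described by the rank of a gene's best gene-end peak within its own library. The rank uses the authors' −log10 q-value and is a percentile of that library's peaks, with 100 for the strongest. Among the 59 genes open in all 6 libraries the median of the mean percentiles was 84.4, beside 81.0 over all such protein-coding genes. Arginine methyltransferases ranked highest with a median of 93.2, followed by acetyltransferases with 86.2, lysine methyltransferases with 79.2, SIRTs with 77.1, HDACs with 75.4 and lysine demethylases with 71.5. The ranges of these classes overlapped, from 82.3 to 98.2 for arginine methyltransferases and from 36.3 to 97.2 for lysine demethylases. Ranks describe each list and carry no change between libraries.

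Of the 10 lysine acetyltransferase genes, 9 were open at a gene end in all 6 libraries and CREBBP in 1. KAT6B, catalytic subunit of a MYST-family complex, had the highest rank of all 79 genes, with percentiles of 99.7, 99.7 and 99.7 in SMG 1 to 3 and 99.7, 99.8 and 99.8 in NG 1 to 3. EP300 and CREBBP encode paralogous coactivators that acetylate histones at enhancers and promoters, and they differed in openness. EP300 had percentiles of 91.1, 90.8 and 91.0 in SMG and 86.9, 92.7 and 92.9 in NG. CREBBP had a gene-end peak in SMG 1 alone, of 200 bp and at percentile 20.6. Both promoters were rich in GC, at 75.3% for EP300 and 70.3% for CREBBP. Their promoter windows, 250 bases upstream to 50 bases downstream of the outermost RefSeq start, are printed here because 1 paralogue had a peak near its start throughout and the other did not (GRCh38.p14; EP300 plus strand, chr22:41092342-41092641; CREBBP minus strand, chr16:3880664-3880963). Capitals mark matches to the GC box (GGGCGG) and to the YY1 motif on either strand, and matches of a motif may overlap. The CREBBP window held 3 GC boxes and 1 YY1 match, which is the last run of capitals, and the EP300 window neither.
EP300: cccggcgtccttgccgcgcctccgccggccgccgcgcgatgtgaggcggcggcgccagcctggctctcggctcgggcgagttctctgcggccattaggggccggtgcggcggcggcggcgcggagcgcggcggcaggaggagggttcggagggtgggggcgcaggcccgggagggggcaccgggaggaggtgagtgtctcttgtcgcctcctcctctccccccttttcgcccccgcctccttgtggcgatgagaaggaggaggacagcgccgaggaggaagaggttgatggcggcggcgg
CREBBP: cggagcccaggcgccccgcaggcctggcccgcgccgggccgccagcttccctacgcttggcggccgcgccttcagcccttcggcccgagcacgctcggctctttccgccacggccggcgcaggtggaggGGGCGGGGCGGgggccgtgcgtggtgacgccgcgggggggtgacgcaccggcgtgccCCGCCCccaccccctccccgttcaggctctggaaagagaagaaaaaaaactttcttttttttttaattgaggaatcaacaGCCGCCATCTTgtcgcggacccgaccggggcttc

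The EP300 peak did not cover its start. Its nearest edge lay 527 to 683 bp from the start and its summit at -925 to -855 bp, upstream of the start, in all 6 libraries. EP300 therefore counted as open through the 1 kb window, and in a 500 bp window it was open in no library. The KAT6B peak likewise lay off the outermost start, with its nearest edge 496 to 559 bp away and its summit 1027 to 1191 bp downstream. KAT6B too was open in no library in a 500 bp window around the gene ends. A further KAT6B start is listed at position 74826600 of chromosome 10. It lies inside the region formed by these peaks, 74825751 to 74827011, which all 6 libraries held. The single CREBBP peak had its edge 657 bp from the start. These 3 genes lay inside the 1 kb limit. Outside it lay KDM5B and SETD6. At KDM5B the nearest edge was 1269 bp downstream of the start in SMG 3, at percentile 3.82, and 2249 to 2366 bp upstream in the other libraries. At SETD6 the edges were at 2932 to 3301 bp.

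KAT2A and KAT2B encode paralogous catalytic subunits of the SAGA and ATAC coactivator complexes, and KAT2A was the 1 enzyme gene whose start was open in one group only. A start peak was a peak within 1 kb of any RefSeq transcript start, a rule added after the gene-end values had been seen. Of the 79 genes 71 have a listed start, and NSD3, KAT6A, KDM4E, SETD1B, KAT8, HDAC5, SIRT7 and DOT1L have none. At the KAT2A start, NG 1 to 3 had peaks of 205, 203 and 462 bp and SMG 1 to 3 had none. Among the 15842 protein-coding genes with a listed start, 12 (0.0757%) were open at a start in all NG and no SMG libraries, and 14 (0.0884%), none of them an enzyme gene, in the reverse pattern. The NG peaks sat on the start, with summits 32 bp downstream, 43 bp upstream and 15 bp downstream of it. They were modest, with −log10 q-values of 7.13, 5.92 and 4.71 by the authors' caller and percentiles of 53.3, 33.7 and 24.1. None reached a −log10 q-value of 10, at which the KAT2A call was lost, while it held without any single library and with windows of 500 bp and 3 kb. In the SMG libraries the nearest peaks to this region were 7924 to 8085 bp away, at the other end of the gene beside DHX58. That far-end peak was present in all 3 SMG libraries and in NG 2 and NG 3, so KAT2A was open at a gene end in all 6 libraries through different ends.

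KAT2B, named here as the paralogue of KAT2A after its values were seen, was open at its start in all 6 libraries. Its percentiles were 87.2, 89.2 and 81.7 in SMG and 77.3, 81.8 and 91.9 in NG. The windows of both are printed because the starts of these paralogues differed in openness and in composition (GRCh38.p14; KAT2A minus strand, chr17:42121318-42121617; KAT2B plus strand, chr3:20040196-20040495). KAT2A had 62.0% GC and 18 CpG dinucleotides in 300 bp, and KAT2B 80.3% GC and 40. Capitals again mark GC boxes, of which KAT2B had 4 and KAT2A none.
KAT2A: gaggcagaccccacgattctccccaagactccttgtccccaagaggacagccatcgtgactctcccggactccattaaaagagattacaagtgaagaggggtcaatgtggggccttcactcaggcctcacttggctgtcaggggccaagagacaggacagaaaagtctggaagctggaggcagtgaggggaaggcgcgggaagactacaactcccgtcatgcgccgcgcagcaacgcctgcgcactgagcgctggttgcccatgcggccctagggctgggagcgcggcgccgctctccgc
KAT2B: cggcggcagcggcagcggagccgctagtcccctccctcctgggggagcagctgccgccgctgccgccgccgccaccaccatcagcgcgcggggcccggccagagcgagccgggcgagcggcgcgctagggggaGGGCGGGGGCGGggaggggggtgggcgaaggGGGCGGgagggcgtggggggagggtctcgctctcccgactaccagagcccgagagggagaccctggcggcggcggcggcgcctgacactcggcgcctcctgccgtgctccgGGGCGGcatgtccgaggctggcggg

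**Figure D2:**
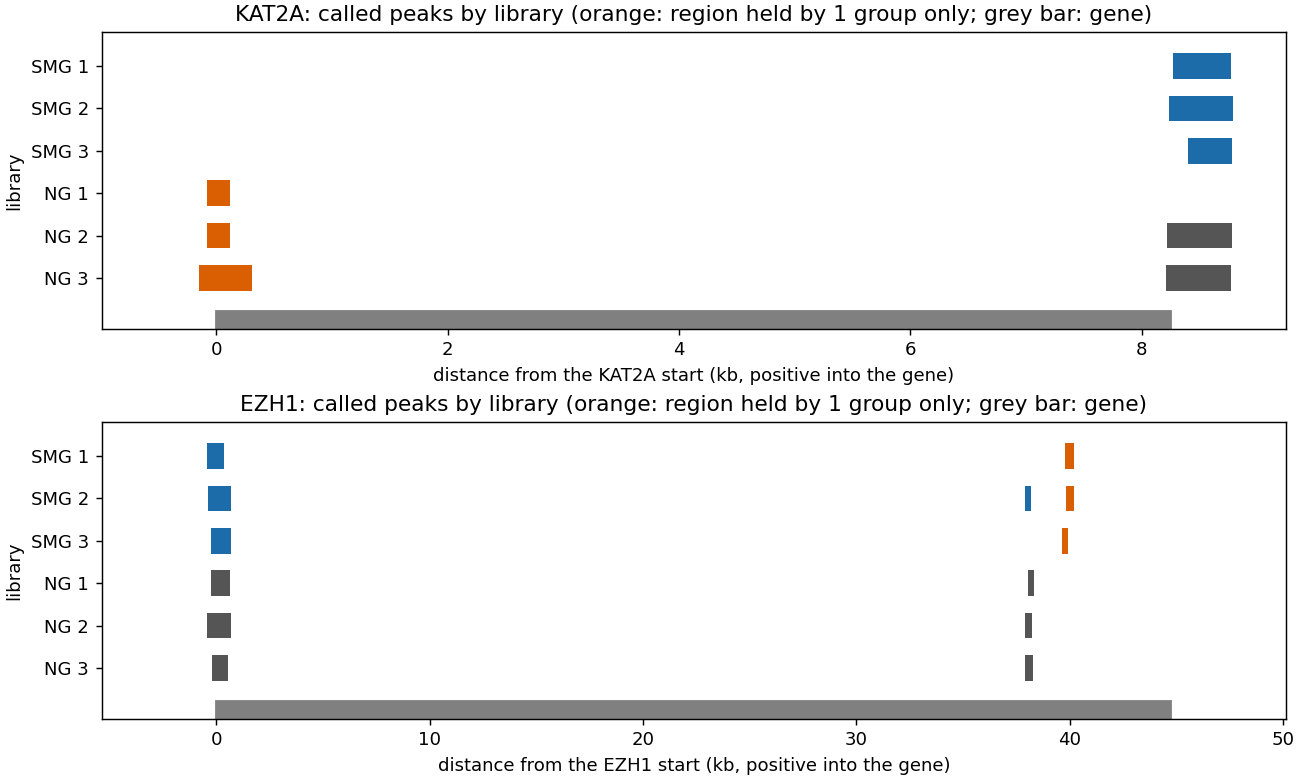
Called peaks along KAT2A (above) and EZH1 (below) in the 3 SMG and 3 NG libraries, placed by distance from the gene start in kb. Orange marks the region held by 1 group only: the KAT2A start in the 3 NG libraries and a region deep inside EZH1 in the 3 SMG libraries. Blue and dark grey are the other SMG and NG peaks, and the grey bar is the gene.

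Of the 23 lysine methyltransferase genes, 16 were open at a gene end in all 6 libraries, 3 in some and 4 in none. The highest ranks were those of KMT5C, which methylates histone H4 in heterochromatin, and SETD5, a SET-domain protein whose own enzymatic activity is debated. KMT5C had percentiles of 99.3, 99.5 and 98.8 in SMG and 99.5, 99.7 and 99.6 in NG. SETD5 had 98.4, 98.7 and 99.7 in SMG and 98.0, 99.1 and 98.3 in NG. KMT5B, the paralogue of KMT5C, was the opposite case: 1 SMG and 1 NG library had a gene-end peak, at percentiles of 3.55 and 33.3. NSD2, a methyltransferase of transcribed gene bodies, was open in 2 SMG and 3 NG libraries, and KMT2C, which methylates histones at enhancers, in 2 SMG and 2 NG libraries. The other 4 genes, DOT1L, NSD1, SETD3 and SETD6, lacked a gene-end peak throughout.

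For those 4 genes the table of transcript starts gave more detail. SETD3, which methylates actin and is not known as a main histone enzyme, had a start peak in all 6 libraries. Its listed start lies 5599 bp inside the annotated gene, beyond the gene-end window. NSD1, which methylates the same histone lysine as NSD2, had a start peak in 1 SMG and 2 NG libraries, at inner starts. SETD6, known for methylating non-histone proteins, had no start peak in any library. DOT1L, which methylates the core of the nucleosome in transcribed genes, has no entry in the start table, and its span of 68.6 kb held 3 regions present in all 6 libraries. EZH1, a catalytic subunit of the Polycomb repressive complex, was open at its start in all 6 libraries. It also held the only region within the enzyme genes that all SMG and no NG libraries shared.

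The EZH1 region spanned 552 bp at chr17:42704846-42705397 (hg38), inside the gene and 39836 to 40008 bp from its start by the summits of the 3 peaks. SMG 1 to 3 had peaks of 421, 385 and 266 bp there, at percentiles of 47.7, 34.5 and 1.58. The third of these was among the weakest of its library, with a −log10 q-value of 2.09 beside 7.34 and 6.21 for the others. None reached a −log10 q-value of 10, so the EZH1 call too was lost at that threshold. The nearest NG peaks lay 1369 to 1392 bp away, at percentiles of 42.7, 37.96 and 18.2. Within 1 kb of the spans of the enzyme genes there were 295 regions after the peaks of the 6 libraries were merged, and 129 of them (43.7%) were common to all 6 libraries, while 74 (25.1%) came from 1. Over all 69562 regions of the genome these shares were 34.7% and 34.9%. Among the 295, 1 region was held by all SMG and no NG libraries and 2 by all NG and no SMG libraries, which is 0.339% and 0.678% of the 295. Over all regions the shares were 0.411% (286 regions) and 0.26% (181 regions). These counts of 1 and 2 are too small to set the shares apart from the background. Leaving out 1 library gave 1 to 7 SMG-only regions, with 7 without SMG 3, and 2 to 4 NG-only regions, with 4 without SMG 2, NG 1 or NG 3.

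The NG regions were the KAT2A start and a region at SIRT7. SIRT7 encodes a nucleolar sirtuin linked to ribosomal RNA transcription. Its NG region, chr17:81911537-81911839 (hg38), lay 100 bp outside the gene and consisted of peaks of 250, 263 and 230 bp in NG 1 to 3, at percentiles of 35.5, 28.4 and 5.73. SMG 2 and SMG 3 had a peak at the opposite end of SIRT7 and SMG 1 had none at either end. NG 2 and NG 3 had further gene-end peaks, for summed lengths of 689 and 431 bp. Gene-end peaks of SIRT7 also lay within 1 kb of an end of PCYT2 in 3 libraries and of MAFG in 4, so they are shared with these genes. In a 500 bp window SIRT7 was open at a gene end in all NG and no SMG libraries; in the 1 kb window it was open in 2 SMG and 3 NG libraries. All 3 regions held by 1 group lay on chromosome 17, which carries 6 of the 79 genes. Over the genome, 14 of 467 such regions (3.00%) lay on that chromosome, beside 3.14% of all regions.

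The arginine methyltransferases were open almost throughout: 7 of 8 were open at a gene end in every library. PRMT5, the main enzyme of symmetric arginine dimethylation, had percentiles of 98.0, 98.4 and 96.4 in SMG and 98.3, 98.8 and 99.2 in NG. PRMT3, known for methylating a ribosomal protein, had 97.2, 97.5 and 93.8 in SMG and 98.3, 97.3 and 98.5 in NG. The exception was PRMT8, a membrane-bound enzyme known chiefly from brain. PRMT8 had neither a gene-end nor a start peak in any library, the nearest peak to its start was 54110 to 73290 bp away, and its promoter window had 47.0% GC.

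Of the 11 HDAC genes, 8 were open at a gene end in all 6 libraries, HDAC8 and HDAC9 in some and HDAC7 in none. HDAC6, a mainly cytoplasmic tubulin deacetylase, had percentiles of 98.9, 98.7 and 98.7 in SMG and 98.0, 98.1 and 98.4 in NG. The class IIa deacetylases, which shuttle between nucleus and cytoplasm upon signalling, differed widely. HDAC4 ranked at 97.5, 98.5 and 98.5 in SMG and 98.2, 99.6 and 99.2 in NG. HDAC9 was open in SMG 1 and SMG 2 and in NG 2 and NG 3, at percentiles between 28.6 and 52.5. HDAC7, a class IIa enzyme known from mouse thymocytes, had no gene-end peak but a start peak in 3 SMG libraries and 1 NG library, NG 2. Its listed start lies 1441 bp inside the annotated gene. HDAC8, a class I enzyme that acts on cohesin, was open in 3 SMG and 2 NG libraries, at percentiles of 21.2, 0.0495 and 65.97 in SMG and 44.4 and 49.4 in NG 2 and NG 3.

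HDAC4 had the most open regions inside the gene of all 79. Its span of 353 kb on chromosome 2 held 35 regions, of which 20 were present in all 6 libraries. Of all 20033 protein-coding genes, 2 (0.00998%), HDAC4 included, had 20 or more such regions. The libraries had 26, 29 and 27 peaks in the span in SMG 1 to 3, against 22, 30 and 25 in NG 1 to 3, so the groups overlapped. The 20 constant regions lay from 0.175 to 303 kb from the start, and their mean percentiles ran from 25.1 to 98.6. HDAC9, with a longer span of 916 kb, had 22 regions and 3 present in all 6 libraries.

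Pooled over the spans there were 1.71 regions held by all 6 libraries per 100 kb of enzyme gene, beside 1.36 per 100 kb over all protein-coding genes, and HDAC4 contributed 20 of 118. The median span was 46.9 kb for enzyme genes and 24.1 kb for all protein-coding genes. After HDAC4 the most constant regions were in KDM4B (5), KDM4C (4), KDM6B (4) and SETD2 (4). At least 5 such regions occurred in 1.79% of all genes and at least 4 in 3.30%. KDM4B belongs to the KDM4 demethylases of histone H3. KDM6B, a demethylase of the Polycomb mark, had its 4 within 20.6 kb, whereas SETD2, which marks transcribed gene bodies, had 4 in 148 kb and KDM4C 4 in 455 kb. Peaks inside the spans of the 79 genes summed to 183, 185 and 177 in SMG and 149, 190 and 175 in NG, again with NG 1 lowest.

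**Figure D3:**
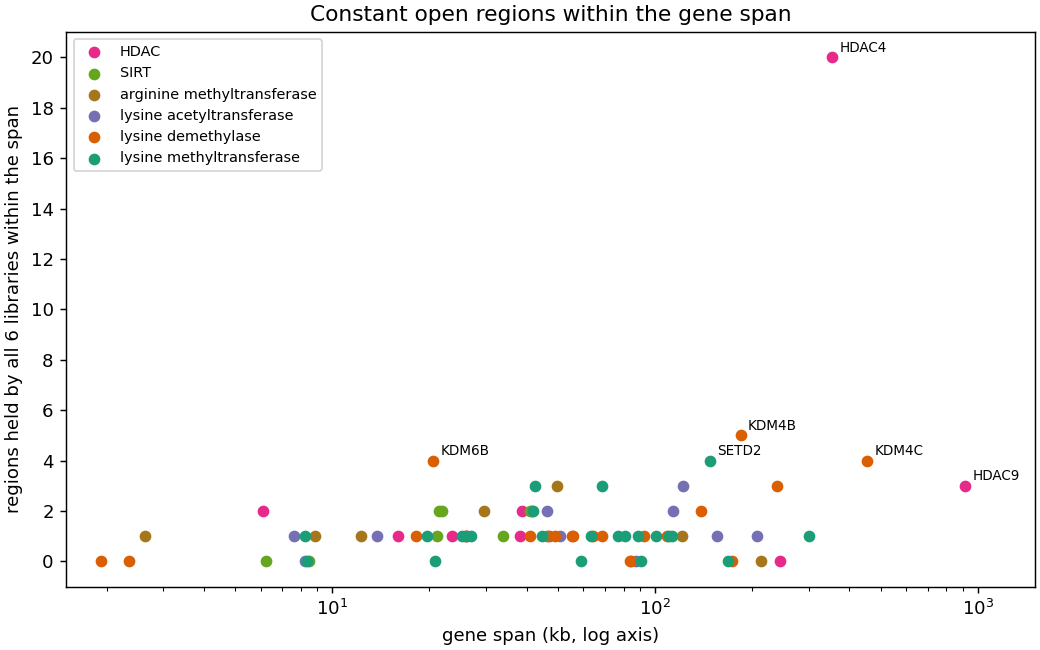
Number of regions held by all 6 libraries within the span of each of the 79 enzyme genes (vertical axis) against the span in kb (horizontal, log axis), coloured by role. HDAC4 with 20 constant regions in 353 kb lies far above the others, which have at most 5.

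Of the 7 SIRT genes, which encode NAD-dependent deacylases, 6 were open in all 6 libraries. SIRT2, a mainly cytoplasmic tubulin deacetylase, had percentiles of 96.0, 96.0 and 96.6 in SMG and 96.9, 97.3 and 98.1 in NG. SIRT5, a mitochondrial enzyme that removes acyl groups such as succinyl, had 82.6, 90.6 and 89.4 in SMG and 93.6, 94.6 and 91.3 in NG. These SIRT5 values belong to a peak at the far end of the gene that also reached the end of NOL7 in all 6 libraries. The peak at the SIRT5 start ranked at 76.1, 82.4 and 81.3 in SMG and 78.3, 83.6 and 89.6 in NG, which overlapped. The start of SIRT6, a nuclear sirtuin of DNA repair, had a peak in 3 SMG and 2 NG libraries.

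The lysine demethylases were the class with the most genes lacking a gene-end peak. Of 20, 13 were open at a gene end in all 6 libraries, 2 in some and 5 in none. The KDM4 family, which removes methyl groups from histone H3, showed the full range. KDM4A had percentiles of 98.3, 97.5 and 97.8 in SMG and 96.8, 96.7 and 95.9 in NG, and KDM4D 96.8, 98.2 and 98.3 in SMG and 94.7, 98.2 and 97.2 in NG. KDM4C had no gene-end peak, but a start peak in all 6 libraries at a start 37110 bp inside the annotated gene. KDM4E and KDM4F lacked gene-end peaks throughout and had no region in their short spans of 2.34 and 1.92 kb. KDM4D, KDM4E and KDM4F are closely related copies on chromosome 11, and how reads mapping to several places were treated is not recorded, so their calls are uncertain. KDM3A, a demethylase of a repressive mark, likewise had a start peak in all 6 libraries, at a start 4327 bp inside the gene. Its paralogue KDM3B was open in 3 SMG and 2 NG libraries, absent from NG 1. KDM2B, which binds unmethylated CpG islands, had a gene-end peak in 1 SMG and 1 NG library and a start peak in 2 SMG and 3 NG libraries. KDM7A, which removes repressive methyl marks, had a start peak in 1 SMG and 3 NG libraries.

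KDM5A and KDM5B encode paralogous demethylases of the methyl mark of active promoters, and they were a further pair with opposite states. KDM5A, named as the paralogue of KDM5B after its values were seen, had a start peak in all 6 libraries, with percentiles of 63.3, 47.1 and 75.7 in SMG and 79.8, 79.0 and 80.4 in NG. CCDC77 starts head to head with KDM5A, and KDM5A gene-end peaks reached the end of CCDC77 in all 6 libraries, so they are shared with it. No such neighbour is listed for KDM5B. KDM5B had neither a gene-end nor a start peak in any library, although its promoter window had 63.7% GC and 34 CpG dinucleotides, more than the 60.0% and 20 of KDM5A. The nearest peaks lay 1269 to 2366 bp from its start, so that with a window of 3 kb KDM5B was open in all 6 libraries. Both windows are printed because the start without a peak was no poorer in CpG (GRCh38.p14; KDM5A minus strand, chr12:389271-389570; KDM5B minus strand, chr1:202808372-202808671). Capitals mark GC boxes (KDM5A 1, KDM5B 3) and the ETS core (CCGGAAG, either strand; KDM5A 1).
KDM5A: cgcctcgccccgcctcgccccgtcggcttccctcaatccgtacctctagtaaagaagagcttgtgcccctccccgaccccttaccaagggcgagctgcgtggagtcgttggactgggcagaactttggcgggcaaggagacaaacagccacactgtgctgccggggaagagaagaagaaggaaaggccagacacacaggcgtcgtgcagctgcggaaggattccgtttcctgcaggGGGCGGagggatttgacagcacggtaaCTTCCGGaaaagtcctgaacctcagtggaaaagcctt
KDM5B: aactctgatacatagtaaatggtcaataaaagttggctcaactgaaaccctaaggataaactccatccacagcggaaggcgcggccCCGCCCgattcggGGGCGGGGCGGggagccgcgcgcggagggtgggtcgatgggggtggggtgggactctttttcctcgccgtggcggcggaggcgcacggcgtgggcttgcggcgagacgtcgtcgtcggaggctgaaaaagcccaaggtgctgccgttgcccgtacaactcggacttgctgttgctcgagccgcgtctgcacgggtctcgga

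The 9 genes open at a gene end in 1 to 5 libraries were not split by group. HDAC8, KDM3B and CREBBP were open in more SMG than NG libraries, NSD2 and SIRT7 in more NG than SMG libraries, and HDAC9, KDM2B, KMT2C and KMT5B in equal numbers. Over all protein-coding genes, 1178 were open in more SMG libraries and 1009 in more NG libraries. Of the 9 genes, 2, 3 and 5 were missing in SMG 1 to 3, against 7, 2 and 2 in NG 1 to 3. The library with the most missing genes was again NG 1, the one with the fewest peaks; the part of peak number in these calls was not tested. Without NG 1, 61 enzyme genes were open in all remaining libraries.

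Peak length gave a graded value for the 59 genes open in all 6 libraries. The summed length of the gene-end peaks was compared on the log2 scale, centred on each library's median over all tested genes, with limma over 9331 genes. No gene passed a Benjamini-Hochberg adjusted p of 0.05 (0% called; smallest adjusted p 0.555), and 435 genes (4.66%) had an unadjusted p under 0.05. None of the 59 enzyme genes passed, and 4 had an unadjusted p under 0.05. Their centred log2 differences, SMG minus NG, were above 0 in 29 and below 0 in 30, with a median of -0.011 beside -0.015 over all tested genes. Without the centring, 40 were above and 19 below 0, the median of all genes moved to 0.073 and that of the enzyme genes to 0.077.

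The 5 largest differences in this measure were those of SIRT6, SIRT4, KDM2A, KDM7A and KMT2B, and their order depended on how length was counted. SIRT4, a mitochondrial sirtuin, had 1667, 2068 and 1685 bp of gene-end peaks in SMG, against 824, 1554 and 862 bp in NG. Its centred log2 difference was 0.71 (SE 0.205), with a limma p of 0.00871 unadjusted and 0.985 adjusted. SIRT4 peaks also reached the ends of the small nuclear RNA genes RNU4-1 and RNU4-2 in all 6 libraries, so the length is shared with them. With the length inside the 1 kb windows alone, the SIRT4 difference was 0.40, smaller than those of KDM7A (-0.64), KDM2A (-0.63) and KMT2B (0.44), while that of SIRT6 was 0.84. SIRT6 had 1392, 957 and 874 bp in SMG and 400, 986 and 531 bp in NG, which overlapped; its difference was 0.74 (SE 0.304, limma p 0.0419 unadjusted, 0.985 adjusted). These sums join both ends of SIRT6, and peaks there also reached the ends of CREB3L3 in 6 libraries and of ANKRD24 in 5. The peaks at the SIRT6 start alone were 603, 349 and 400 bp in SMG, against 200 and 627 bp in NG 1 and NG 2 and none in NG 3. KDM2A, a demethylase that binds CpG islands, went the other way, with 426, 413 and 395 bp in SMG and 599, 536 and 677 bp in NG. Its difference was -0.64 (SE 0.22, limma p 0.0203 unadjusted, 0.985 adjusted). A stronger KDM2A peak at an inner start, at percentiles of 97.6, 98.6 and 97.1 in SMG and 96.9, 97.6 and 98.4 in NG, is not part of this length. KDM7A (-0.59) and KMT2B (0.47), an MLL-family methyltransferase of promoters, followed in size, and both had unadjusted p-values above 0.05 by limma. KMT2B had 824, 901 and 865 bp in SMG and 470, 525 and 819 bp in NG. KDM7A had 219, 888 and 658 bp in SMG and 484, 1150 and 648 bp in NG, which overlapped. SMG 1 and SMG 3 had no KDM7A start peak, so their sums hold the far end alone, while the others join both ends. The KDM7A difference rested on single libraries, at -0.0081 without SMG 1, -0.30 without NG 2 and -0.99 without SMG 2. Gene-end peaks of KDM7A, KDM2A and KMT2B also reached the ends of LOC124901757, LOC107984341 and ZBTB32, respectively, in all 6 libraries. An adjusted p above 0.05 does not show that lengths of the groups were alike.

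**Figure D4:**
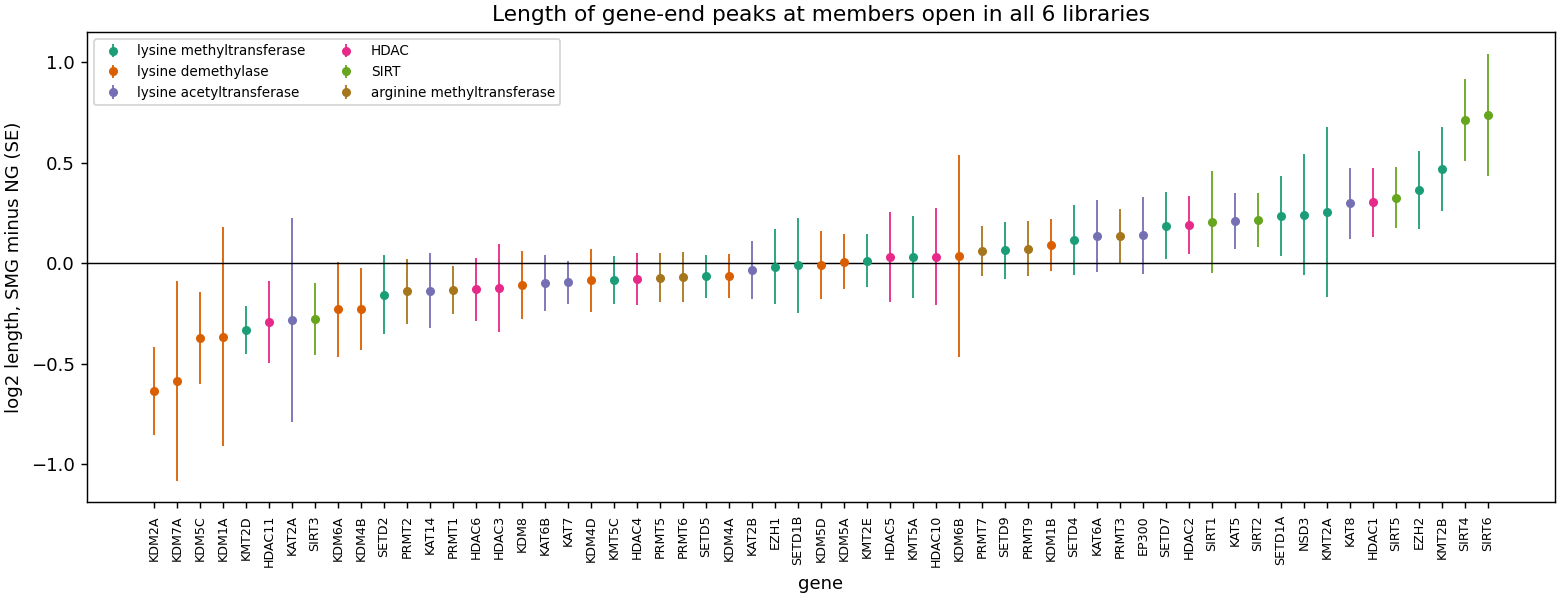
Centred log2 difference in summed gene-end peak length, SMG minus NG, for the 59 enzyme genes open in all 6 libraries (points, coloured by role; bars are the limma standard error). The genes run from KDM2A at -0.64 to SIRT6 at 0.74, and none passed an adjusted p of 0.05.

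The promoters of the enzyme genes were richer in GC and CpG than average. Over the outermost start of the 71 genes with an entry, the median GC share of the 300 bp window was 66.3%, beside 62.7% over 15842 protein-coding genes. The median number of CpG dinucleotides was 30 beside 22, and their observed-to-expected ratio 0.891 beside 0.761. The GC box (GGGCGG) occurred in 70.4% of the enzyme promoters and 58.3% of all, the ETS core (CCGGAAG) in 18.3% and 14.2%, and the E-box (CACGTG) in 14.1% and 8.82%. The CCAAT box (CCAAT) occurred in 31.0% and 36.4%. The NRF1 motif occurred in 4.23% and 1.77%. The YY1 motif was present in 5 enzyme promoters (7.04%), CREBBP, KDM5C, KMT2B, PRMT1 and PRMT5, named after the matches were seen, beside 1.33% of all promoters. The TATA motif (TATAAA) was in none of the 71, beside 9.75% of all. Among outermost starts open in all 6 libraries, the GC box occurred in 72.2% of enzyme promoters and 72.1% of all. The ETS core then occurred in 16.7% and 23.2%, the E-box in 14.8% and 10.9% and the YY1 motif in 7.41% and 2.39%. At these starts the NRF1 motif was in 3.70% and 3.07%, and the median GC share was 66.5% and 65%. The CCAAT box was there in 29.6% and 40.5%, and the TATA motif in 0% and 5.07%. All motifs were searched on both strands, and these shares are descriptions of the letters in the window and not of bound factors.

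Openness at the start went with GC share over the genome, and most enzyme genes lay where starts were most often open. At like GC shares from 50 to 90%, enzyme genes were still open more often than all genes. Of the 71 genes, 54 (76.1%) had a start peak in all 6 libraries, beside 49.7% of all genes, and 4 (5.63%) in none, beside 37.7%. Counted over the outermost starts of all genes, the share open in all 6 libraries was 19.1% at a GC share of 40 to 50%, 47.1% at 50 to 60%, 62.3% at 60 to 70%, 56.2% at 70 to 80% and 19.9% at 80 to 90%. The enzyme genes in these bins were open in 0 of 3, 11 of 13, 23 of 27, 18 of 24 and 2 of 4 cases. The first of these shares was below that of all genes and the others were above it, which was not tested. A neighbouring gene starting head to head within 1 kb was present for 28.2% of the enzyme genes and 19.8% of all genes. Top-ranked peaks can be shared with such neighbours. Gene-end peaks of KDM4D, SIRT2, SETD5, PRMT5 and HDAC4 reached CWC15, NFKBIB, THUMPD3-AS1, PRMT5-DT and HDAC4-AS1, respectively, in all 6 libraries.

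**Figure D5:**
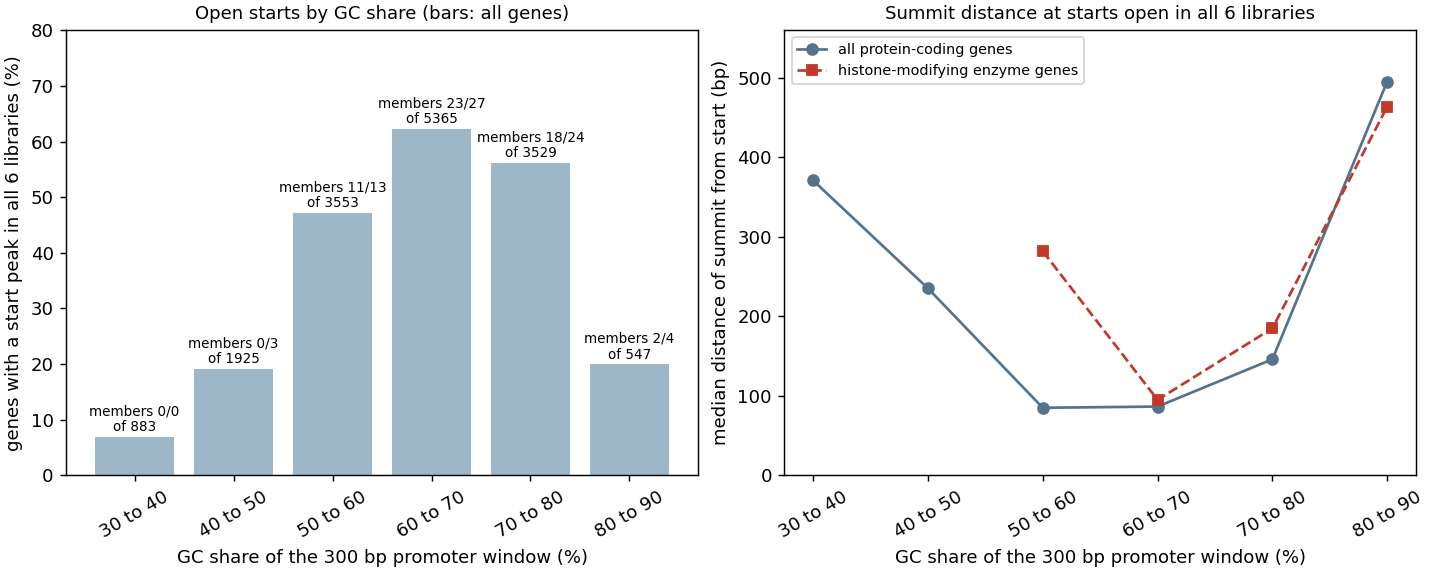
Start peaks by GC share of the 300 bp promoter window. Left, the percentage of all protein-coding genes with a peak at the outermost start in all 6 libraries (bars), with the counts of enzyme genes written above. Right, the median distance in bp of the peak summit from the outermost start, for all genes (circles) and enzyme genes (squares). The bars peak at 62.3% for a GC share of 60 to 70%, and the distance of all genes is 495.5 bp at 80 to 90%.

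Where an enzyme gene was open at its outermost start, the peak summit lay within 250 bp of it less often than over all genes, a difference that was not tested. Among the 54 outermost starts open in all 6 libraries, the summit lay within 250 bp of the start at 31 (57.4%), beside 73.9% of all such genes. Inner starts were left out of this measure, and in HDAC6, KAT14, KAT6B and SETD9 a listed inner start lies nearer the median summit. KAT14 and SETD9 were named here after their values were seen. The median summit position was -96.75 bp, that is upstream, beside -61 bp. The start base itself was covered by a peak in all 6 libraries at 35 of the 54 starts (64.8%), beside 78.6% of all such genes. Above 60% GC the summit distance over all genes was larger at higher GC shares, with a median of 86.5 bp at 60 to 70% GC, 146 bp at 70 to 80% and 495.5 bp at 80 to 90%. The enzyme genes had 95 bp, 185 bp and 463.75 bp in these bins, from 23, 18 and 2 genes. At 50 to 60% GC they had 282 bp from 11 genes, beside 85 bp over all genes. HDAC6, KAT14 and SETD9, with 53%, 58% and 57% GC at their outermost starts, are among these 11. The bins hold few enzyme genes, and the differences were not tested.

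Genes that work with these enzymes were counted in the same way. Of 39 partner subunits of the enzyme complexes, such as the Polycomb and SAGA cofactors, 31 were open at a gene end in all 6 libraries and 1 in none. Of 30 further histone-modifying enzymes outside the name rule, 21 were open in all 6 and 4 in none, and of 30 readers of histone marks 16 were open in all 6 and 6 in none. No gene of these 3 lists was open in all libraries of a group and in none of the other.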

How the data were processed

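Reads were handled with MACS2, SAMtools, Bowtie, BWA and FastQC on hg38, per the submitters' processing notes, which carry no versions. For each library the authors deposited its own peak list, with a score, a fold enrichment (ratio), a −log10 p-value, a −log10 q-value and a summit per peak. These are the authors' values and were used only to rank or filter peaks within a list. The deposited score equals 10 times the −log10 q-value to within 1.

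Gene coordinates came from a RefSeq gene table of 59792 genes and starts from a RefSeq promoter table (GRCh38.p14, 22198 starts of protein-coding genes). Peaks were intersected with gene-end windows of 1 kb, start windows and gene spans, and merged across libraries at an overlap of 1 bp (Python 3.11.15, pandas 2.3.3). A call in 1 group required all 3 of its libraries and none of the other's. Peak lengths were tested with limma 3.58.1 (R 4.3.3, trend, Benjamini-Hochberg over all genes tested), checked on simulated data. Genes were named by rule: those without a peak in at least 1 library, group-only calls, the 2 top ranks per role, the 5 with most constant regions and the 5 largest length differences. The members, gene lists and tests were chosen with earlier results of these data known. If replicates share a culture, p-values measure technical spread only.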

Additional observations from a re-analysis of the deposited data

How the results depend on the processing

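The number of enzyme genes open at a gene end in all 6 libraries was 55 with a 500 bp window, 63 with 3 kb, 57 when the summit had to lie in the window and 45 at a −log10 q-value of at least 10, against 59; for all protein-coding genes the last setting gave 6038 against 9331. At that threshold gene-end calls were 22 in SMG only and 9 in NG only, against 20 each, and start calls 17 and 5, against 14 and 12; enzyme genes with an NG-only start and NG-only regions at enzyme genes numbered 0, and the genome held 133 SMG-only and 33 NG-only regions. The 1 SMG-only region at enzyme genes was then in HDAC4, where all 6 libraries have a peak at the authors' threshold, and not in EZH1. A 500 bp window gave 1 enzyme gene open in NG only at a gene end, SIRT7, and 8 genes with an SMG-only start. Leaving out 1 library each, protein-coding genes open at a gene end in SMG only numbered 26 to 71 and in NG only 33 to 70, and at a start 22 to 52 and 19 to 47. Enzyme genes with an SMG-only start numbered 0 to 1 (HDAC7 without NG 2) and with an NG-only start 1 to 2 (KDM7A added without SMG 2); regions at enzyme genes numbered 1 to 7 in SMG only and 2 to 4 in NG only, and all regions 421 to 859 and 319 to 831. The cause of these moves was not tested; with fewer libraries the rule asks for fewer peaks. With the replicate number as a block, limma on length called 0 genes. For the presence calls a replicate block cannot alter the rule of all 3 against none, so their counts (0 and 0 enzyme genes and 20 and 20 genes at gene ends, 14 and 12 starts) are no check of them. In centred log2 peak length, same-numbered libraries did not deviate together (r 0.0055, 0.0706 and -0.0661). A low correlation in this measure alone cannot exclude pairing, on which the labels are silent. No length call was made under any alternative run.

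Peak lists without read counts limit what can be said: signal under the caller's threshold is not seen, peak number differs between libraries, and depth is unknown. A call of 3 libraries against 0 cannot reach an exact p under 0.1. Start peaks and their alternatives were chosen after seeing the data.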
